A study of Mus musculus with 11 samples.

Results

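Selplg, Cd44, S1pr1, S1pr4, Gpr183 and Il7r encode surface receptors that T cells use to recirculate, to home and to survive. All probe sets of these 6 genes were taken from the deposited table. They numbered 11, and for each gene the brightest probe set on average gave the main value. The 6 genes stand against 18193 genes tested in all.

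The data were 11 Affymetrix arrays, 1 per sample, of CD4 T cells that came from spleens and lymph nodes. The mice were 6 to 8 weeks old. GFPKO (n = 3) were GFP+ CD4+ T cells of Foxp3GFPKO/WT mice. These mice carry 1 wild-type allele of Foxp3, the lineage factor of regulatory T cells. Their other allele, by its name, expresses GFP and no functional Foxp3, and the sorted GFP+ cells were those that expressed this allele. Treg (n = 5) were Foxp3-positive CD4+ T cells, and TN (n = 3) were naïve Foxp3-negative CD4+ T cells. All cells were selected for CD4 and sorted in 2 rounds on GFP and on further markers that the labels do not name, and mouse strains are not given in the sources used here. Levels are log2 values made by the authors with RMA, 1 per probe set. A gene is said to rise, fall or differ only at an adjusted p under 0.05 in limma, with the Benjamini-Hochberg adjustment taken over every gene of a comparison. Fold changes are given ± SE and group means ± SD.

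A few facts of the series bear on every comparison. The Foxp3 probe set read 6.75 to 7.19 on the GFPKO arrays, 3.29 to 3.64 on the Treg arrays and 3.12 to 3.99 on the TN arrays. The arrays labelled Treg were thus no higher than TN for Foxp3, against their label. Yet 9 of 10 Treg marker genes rose in them against TN, where 6.54% of all genes did. Every direction given for Treg rests on the label. Xist and the Y-linked genes gave the GFPKO arrays a female pattern and the other arrays a male one, so genotype and sex cannot be told apart in a comparison with GFPKO. GFPKO arrays also varied most, with correlations across genes of 0.979 to 0.990 within the group, against at least 0.990 in Treg and 0.994 in TN. The 3′ minus 5′ difference of the actin control, which grows as RNA degrades, was 0.770 and 0.832 in GFPKO replicates 1 and 2 but 0.451 in replicate 3, against 0.442 to 0.611 in Treg and 0.381 to 0.526 in TN. Nothing in the labels ties the arrays of 1 group to different mice. The p-values therefore cover the spread between these samples, and part of it may be technical.

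A naive T cell enters a lymph node from the blood, stays for a time and leaves through the lymph, drawn by sphingosine 1-phosphate, which is high in blood and lymph. S1pr1 is the receptor for this exit, and S1pr4 is a related receptor of the same lipid found on lymphocytes. Gpr183, also called EBI2, senses oxysterols and guides lymphocytes and dendritic cells to the outer zones of lymphoid tissue. Selplg encodes PSGL-1, the ligand through which leukocytes roll on selectins, and Cd44 encodes a receptor for hyaluronan that rises on T cells after activation. Il7r encodes the alpha chain of the interleukin 7 receptor, the main survival receptor of naive and memory T cells, and a low level of it on the surface is widely used to recognise regulatory T cells.

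The 6 genes moved in both directions or were not called. In Treg against TN, Il7r and Gpr183 fell, Cd44 rose and the other 3 did not pass the test. These 3 calls compare with 9.97% of all genes called in Treg minus TN, 6.54% higher and 3.42% lower. In GFPKO against TN only Il7r was called, and it fell, where 5.66% of all genes were called, 2.64% as higher and 3.02% as lower. In GFPKO against Treg, S1pr1 and Gpr183 were higher and none was lower in limma by its main probe set, while at an unadjusted p under 0.05 Cd44 was lower. Of all genes 9.43% were called here, 2.55% as higher and 6.88% as lower. With each array centred on its median over all genes, log2 differences shift by -0.14 in Treg minus TN and by 0.17 in GFPKO minus Treg. The calls over all genes then split into 904 higher and 1174 lower in Treg minus TN, against 1190 and 623 as deposited, and into 899 and 675 in GFPKO minus Treg, against 464 and 1252, while each call for the 6 genes was the same. The median log2 difference of the 6 genes was -0.41 in Treg minus TN, -0.10 in GFPKO minus TN and 0.24 in GFPKO minus Treg, beside 0.03, -0.04 and -0.08 over all genes. The 3 comparisons share arrays, so they are not independent of each other.

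**Figure D1:**
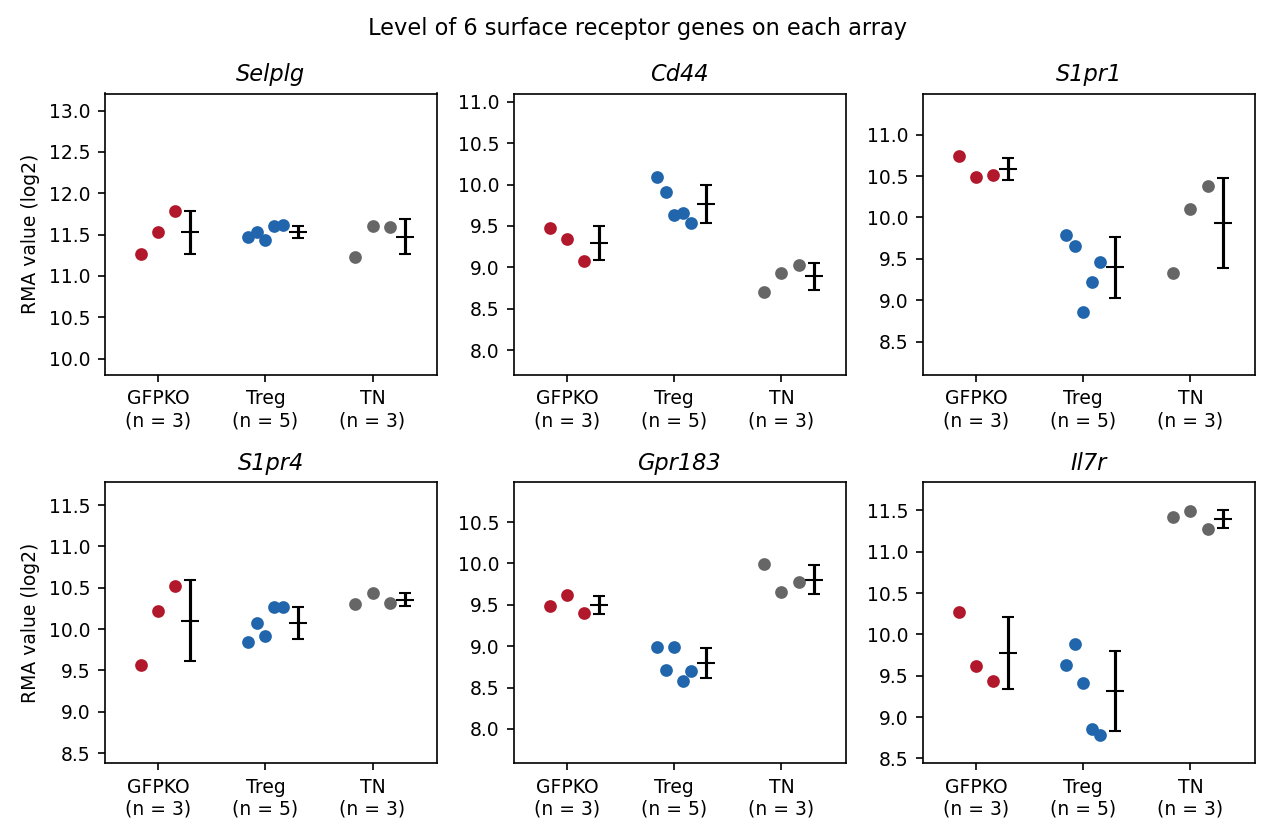
RMA value (log2) of the main probe set of each of the 6 genes on every array. Points are arrays, bars are the mean ± SD of GFPKO (n = 3), Treg (n = 5) and TN (n = 3), and every panel spans the same number of log2 units. The Il7r points of GFPKO and Treg reach at most 10.27 and 9.89 and those of TN start at 11.27, while for Gpr183 the Treg points end at 8.99, below the lowest GFPKO point at 9.40.

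Il7r showed the largest difference of the 6 genes. Its brightest probe set, 1448575_at, read 10.27, 9.62 and 9.44 in GFPKO, 9.63, 9.89, 9.41, 8.86 and 8.78 in Treg, and 11.42, 11.50 and 11.27 in TN. Every GFPKO and Treg array was below every TN array, and the GFPKO and Treg ranges overlapped. Compared with TN, Il7r was 4.23-fold lower in Treg (a difference of -2.08 ± 0.24 on the log2 scale, adjusted p = 2.2e-05 in limma) and 3.08-fold lower in GFPKO (-1.62 ± 0.27, adjusted p = 0.00145). By absolute log2 fold change it ranked 172 of 18193 genes in each of these comparisons. GFPKO minus Treg was 0.46 ± 0.24 (adjusted p = 0.278), with a 95% interval from -0.06 to 0.98. That last value was 0.21 without GFPKO replicate 1, 0.18 with array weights and 0.13 with the replicate block, and it was called in none of these fits. Treg replicates 4 and 5 held the lowest Il7r values (Treg SD 0.48).

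The other Il7r probe set, 1448576_at, repeated the order of the groups at a lower signal. It read 8.63, 8.06 and 7.90 in GFPKO, 7.13 to 8.14 in Treg with a median of 7.42, and 9.53, 9.91 and 9.64 in TN. In the fit over all 34945 probe sets it fell by 2.11 in Treg against TN (adjusted p = 4.6e-05) and by 1.50 in GFPKO against TN (adjusted p = 0.00526), where 7.99% and 4.07% of probe sets were called. GFPKO minus Treg was 0.62 ± 0.25 (adjusted p = 0.152). Both Il7r probe sets were thus called in the same comparisons and in the same direction. In these bulk samples fewer cells with the transcript and less RNA per cell cannot be told apart.

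Markers of other cells moved with these comparisons. Of all genes 6.54% were higher and 3.42% lower in Treg than in TN, and 3.02% were lower in GFPKO than in TN. The 15 myeloid and dendritic markers had 6 lower and 1 higher in Treg than in TN and 6 lower in GFPKO than in TN, with a summed linear signal of 279 to 429 in GFPKO, 324 to 514 in Treg and 549 to 808 in TN. In TN 4 of the 15 had a mean at or below 3.99, the highest Foxp3 value on a TN array and taken here as background, against 10 in GFPKO and 9 in Treg. Of the 7 measured NK cell markers 3 were lower in Treg and 4 in GFPKO than in TN. These 7 summed to 129 to 158 in GFPKO, 154 to 171 in Treg and 765 to 900 in TN. The brightest in TN were Klrd1 (8.83, against 3.96 in GFPKO and 3.15 in Treg) and Prf1 (7.92, against 5.32 and 5.71). At or below background were 3 of the 7 in TN, Ncr1, Klrk1 and Klra1, and 4 each in GFPKO and Treg. The 7 measured CD4 T cell markers, all above background in every group, summed to 23015 to 26184 in GFPKO, 22987 to 24325 in Treg and 24466 to 24968 in TN. Of these Cd28, a co-stimulatory receptor gene, was lower in Treg than in TN by 0.63 and higher in GFPKO than in Treg by 0.73, and Cd247, the zeta chain of the T cell receptor complex, was lower than in TN by 0.77 in GFPKO and by 0.56 in Treg. The part of these other markers in the values of the 6 receptors was not tested.

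Gpr183 was lower in Treg than in both other groups. Its brightest probe set, 1437356_at, read 9.48, 9.61 and 9.40 in GFPKO, 8.98, 8.72, 8.99, 8.58 and 8.70 in Treg, and 9.99, 9.65 and 9.77 in TN. The 3 groups did not overlap, with Treg lowest, GFPKO between and TN highest. Gpr183 was 2.02-fold lower in Treg than in TN (-1.01 ± 0.13, adjusted p = 7.24e-05 in limma) and 1.63-fold higher in GFPKO than in Treg (0.71 ± 0.13, adjusted p = 0.00329). GFPKO minus TN was -0.31 ± 0.15 with an interval from -0.62 to 0.01 (adjusted p = 0.327), so the neighbours GFPKO and TN in that order did not differ by the test.

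The dimmer Gpr183 probe set, 1457691_at, gave a like picture. It read 8.20, 8.58 and 8.34 in GFPKO, 7.15 to 7.97 in Treg with a median of 7.61, and 8.37, 8.56 and 8.56 in TN. Here the GFPKO and TN arrays overlapped and the Treg arrays lay below both. It fell by 0.91 in Treg against TN (adjusted p = 0.00225) and was higher by 0.78 in GFPKO than in Treg (adjusted p = 0.00903), where 8.60% of all probe sets were called.

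Cd44 went the other way in Treg. Its brightest probe set, 1423760_at, read 9.48, 9.34 and 9.08 in GFPKO, 10.10, 9.91, 9.64, 9.66 and 9.54 in Treg, and 8.71, 8.93 and 9.03 in TN. The groups did not overlap, with Treg highest and TN lowest, although the lowest GFPKO array was only just above the highest TN array. Cd44 was 1.84-fold higher in Treg than in TN (0.88 ± 0.15, adjusted p = 0.000843 in limma). By this probe set GFPKO differed from neither neighbour by the test, at 0.41 ± 0.17 against TN (adjusted p = 0.218) and -0.47 ± 0.15 against Treg (adjusted p = 0.0638).

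The other Cd44 probe sets placed GFPKO nearer to TN. Probe set 1434376_at read 8.70, 8.81 and 8.64 in GFPKO, 9.05 to 9.75 in Treg and 8.72, 8.59 and 8.46 in TN. Probe set 1452483_a_at read 5.29, 5.95 and 5.41 in GFPKO, 6.61 to 6.89 in Treg and 5.91, 5.64 and 5.13 in TN. In both, the GFPKO and TN arrays overlapped and every Treg array was above them. Over all probe sets these rose in Treg against TN by 0.80 (adjusted p = 0.00312) and 1.19 (adjusted p = 0.000465), and they fell in GFPKO against Treg by 0.68 (adjusted p = 0.0133) and 1.21 (adjusted p = 0.000941). The brightest probe set missed the threshold for that last comparison in the same fit (adjusted p = 0.0712), so the Cd44 call between GFPKO and Treg depends on the probe set. The remaining Cd44 probe set, 1443265_at, read 2.11 to 2.65 over all arrays, below background, and carried no measurable difference.

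**Figure D2:**
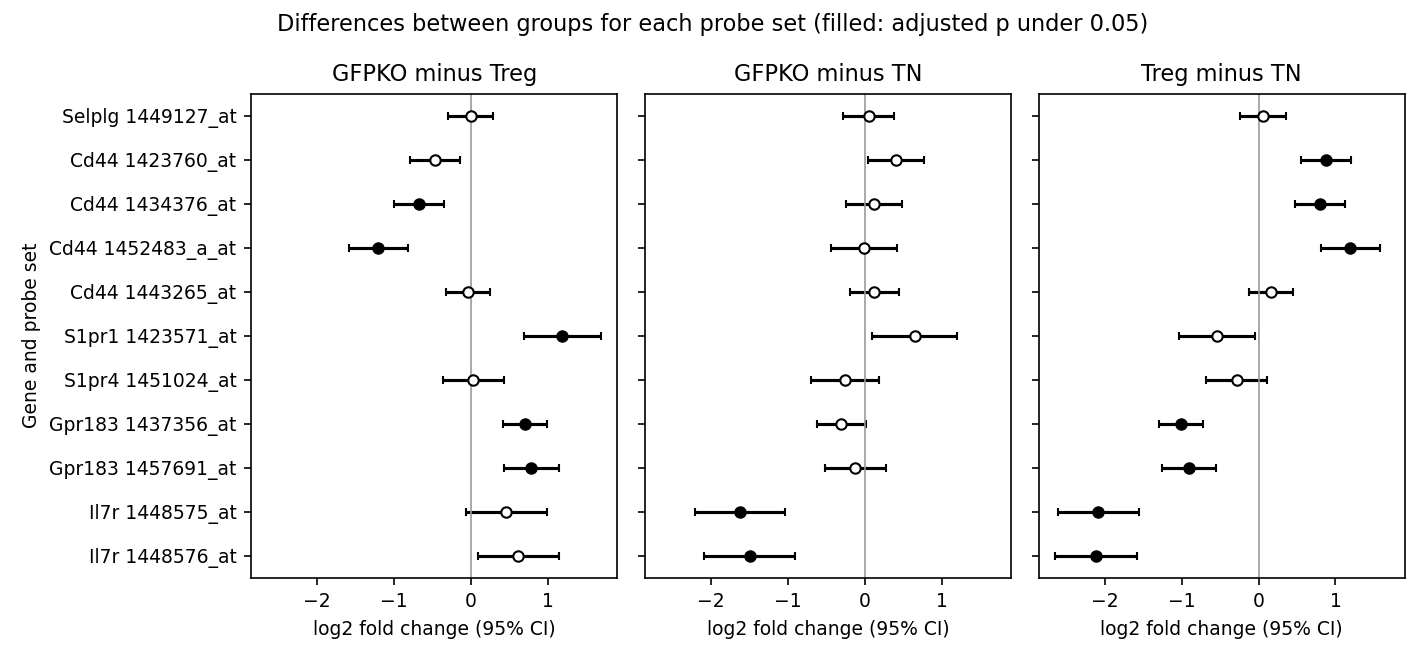
Log2 fold change of each of the 11 probe sets in GFPKO minus Treg, GFPKO minus TN and Treg minus TN, with 95% intervals, from the limma fit over all 34945 probe sets. Filled points had an adjusted p under 0.05. Both Il7r probe sets lie left of 0 against TN in GFPKO and in Treg, both Gpr183 probe sets lie right of 0 in GFPKO minus Treg, and the 3 brighter Cd44 probe sets lie right of 0 in Treg minus TN.

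S1pr1, the exit receptor, was highest in GFPKO. Its only probe set, 1423571_at, read 10.74, 10.50 and 10.51 in GFPKO, 9.78, 9.66, 8.86, 9.22 and 9.46 in Treg, and 9.33, 10.10 and 10.38 in TN. Every GFPKO array was above every array of the other groups, and the Treg and TN ranges overlapped because TN replicate 1 lay among the Treg arrays. S1pr1 was 2.28-fold higher in GFPKO than in Treg (1.19 ± 0.23, adjusted p = 0.00388 in limma). With the actin difference as a covariate the value was 0.96 (adjusted p = 0.0474). GFPKO replicate 3, with an actin difference of 0.451, read 10.51 for S1pr1, and the highest TN array read 10.38. The part of RNA quality in the S1pr1 values was not tested. GFPKO minus TN was 0.65 ± 0.26 (adjusted p = 0.193), and it was 0.34 both without TN replicate 1 (adjusted p = 0.656) and with the actin covariate (adjusted p = 0.784). Treg minus TN was -0.54 ± 0.23 (adjusted p = 0.192), and without TN replicate 1 it was -0.84 and passed the threshold (adjusted p = 0.026), so that array decides the call.

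S1pr4 and Selplg showed no difference by the test in any comparison. S1pr4, by 1451024_at, read 9.56, 10.22 and 10.52 in GFPKO, 9.85, 10.08, 9.91, 10.27 and 10.27 in Treg, and 10.31, 10.44 and 10.32 in TN. GFPKO spanned both other groups, while each Treg array was just below each TN array. Treg minus TN was -0.28 ± 0.18 for S1pr4, with an interval from -0.67 to 0.11 (adjusted p = 0.458). GFPKO minus TN was -0.25, from -0.69 to 0.18, and GFPKO minus Treg 0.03, from -0.36 to 0.42.

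Selplg, by 1449127_at, read 11.27, 11.53 and 11.78 in GFPKO, 11.48, 11.53, 11.44, 11.60 and 11.62 in Treg, and 11.23, 11.60 and 11.60 in TN. All 3 groups overlapped. Of the 6 genes Selplg had the smallest difference in each comparison, with intervals from -0.24 to 0.35 for Treg minus TN (adjusted p = 0.887), from -0.28 to 0.38 for GFPKO minus TN (adjusted p = 0.931) and from -0.30 to 0.29 for GFPKO minus Treg (adjusted p = 0.984).

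The promoters of Il7r and Gpr183, which both fell in Treg, and of Cd44, which rose, are shown because these genes carry the difference between Treg and TN. Each is the 250 bases before the start site, 5′ to 3′ on the strand of the gene, from RefSeq on GRCm38.p6, where 4 of the 6 genes had an entry. They lie on the minus strand at chr15:9529877-9530126 (Il7r), chr14:121965194-121965443 (Gpr183) and chr2:102901666-102901915 (Cd44). Capitals mark matches to the ETS core GGAAG or the STAT motif TTCNNNGAA on either strand.
Il7r: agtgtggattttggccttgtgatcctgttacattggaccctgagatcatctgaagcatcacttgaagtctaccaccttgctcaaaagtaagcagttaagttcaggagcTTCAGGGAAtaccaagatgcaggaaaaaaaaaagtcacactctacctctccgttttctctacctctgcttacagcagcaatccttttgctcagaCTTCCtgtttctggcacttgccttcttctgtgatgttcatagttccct
Gpr183: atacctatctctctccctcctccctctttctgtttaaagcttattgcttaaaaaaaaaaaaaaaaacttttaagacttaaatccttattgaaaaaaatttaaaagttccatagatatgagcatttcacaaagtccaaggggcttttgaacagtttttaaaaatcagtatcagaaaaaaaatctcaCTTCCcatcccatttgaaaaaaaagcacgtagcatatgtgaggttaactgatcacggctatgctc
Cd44: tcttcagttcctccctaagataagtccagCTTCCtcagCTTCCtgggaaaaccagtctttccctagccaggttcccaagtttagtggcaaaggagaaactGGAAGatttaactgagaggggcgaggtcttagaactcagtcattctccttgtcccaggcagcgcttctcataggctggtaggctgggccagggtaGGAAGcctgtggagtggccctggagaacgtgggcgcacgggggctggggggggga
The motifs searched on both strands were the ETS core GGAAG, the STAT motif TTCNNNGAA, the forkhead motif GTAAACA, the RUNX motif TGTGGT and the KLF motif CACCC, and no matches overlapped. The ETS core occurred 4 times before Cd44 and 1 time each before Gpr183 and Il7r, and 64.1% of all 32851 windows of this length hold it. The Il7r match, CTTCC, stood 48 to 44 bases before the start. The STAT motif was found before Il7r only among the 4 genes, as TTCAGGGAA 142 to 134 bases before the start, and 7.02% of windows hold it. The forkhead and RUNX motifs, held by 3.17% and 14.0% of windows, were in none of the 4 windows, and the KLF motif, held by 52.0%, was before S1pr4 only. A match is a description of letters, and no binding was measured here. The Gpr183 window was 32.0% G and C, the Il7r window 44.0% and the Cd44 window 56.4%.

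None of the measured genes that act with Il7r fell with it by the test. Interleukin 7 signals through the alpha chain and the common gamma chain to JAK1, JAK3 and STAT5, and thymic stromal lymphopoietin uses the same alpha chain with Crlf2. The list of this pathway, like the other gene lists, was chosen with earlier results of these data known. Of its 15 measured genes 7 rose and none fell in Treg against TN, where 6.54% of all genes rose and 3.42% fell. At an unadjusted p under 0.05 there were 10 higher and 1 lower, with a median log2 difference of 0.47 beside 0.03 over all genes. Cish, a feedback inhibitor induced by STAT5, was higher by 3.39 ± 0.16 (adjusted p = 1.3e-09 in limma), the repressor gene Gfi1 by 1.80 ± 0.18 and the kinase gene Pim1 by 1.49 ± 0.13. In GFPKO against TN 3 rose and none fell (7 and 0 unadjusted), where 2.64% of all genes were called higher and 3.02% lower. The median was 0.36 beside -0.04. The 3 that rose were Cish by 2.79, Gfi1 by 1.65 and the survival gene Bcl2 by 1.18 ± 0.28 (adjusted p = 0.018). For Bcl2 the GFPKO arrays read 10.91, 10.12 and 9.45, with replicate 1 highest. In GFPKO against Treg 4 fell and none rose (4 and 3 unadjusted), where 6.88% of all genes were called lower and 2.55% higher. The median was -0.12 beside -0.08. Among the 4 that fell were Pim1 by 1.13, Socs1, another feedback inhibitor, by 0.86 and Crlf2 by 0.62. Several of these genes are also targets of interleukin 2, which signals through the same kinases, and these data do not separate the cytokines.

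**Figure D3:**
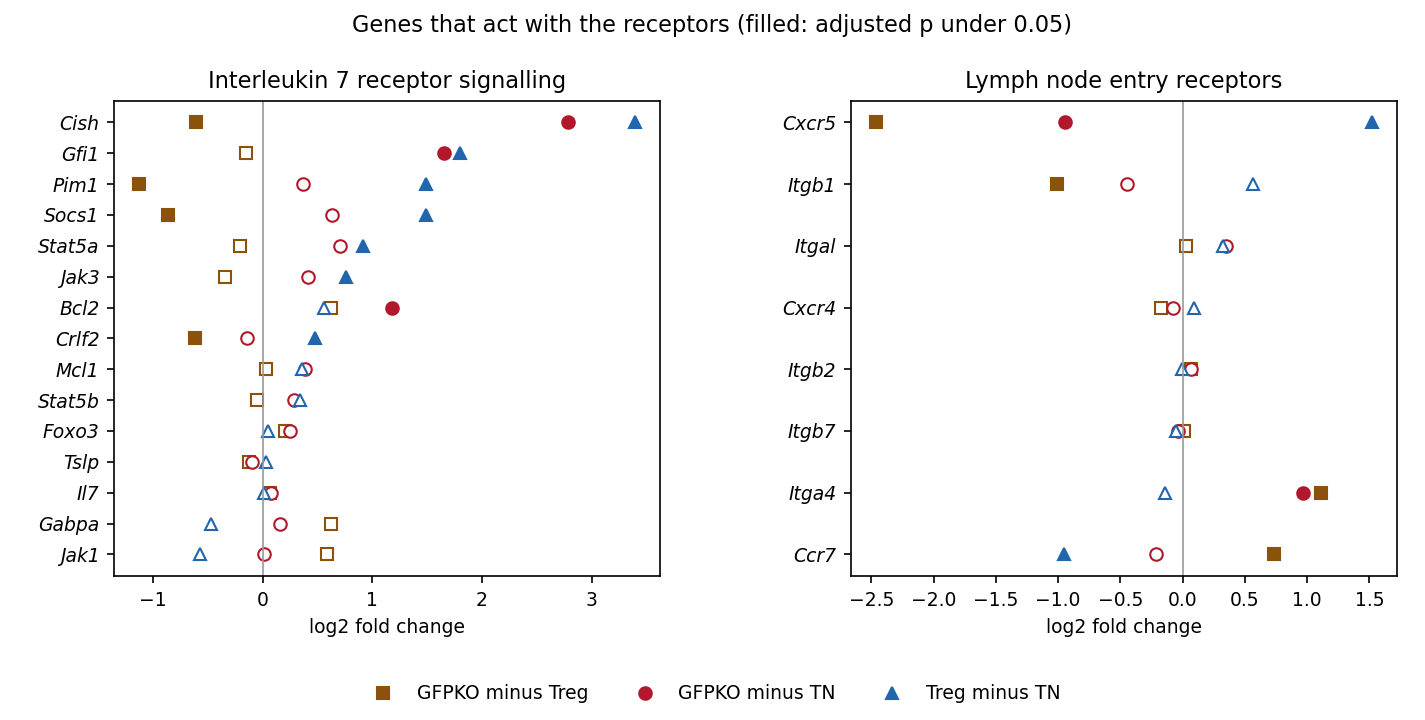
Log2 fold change of the 15 measured genes of interleukin 7 receptor signalling and the 8 measured lymph node entry receptors in GFPKO minus Treg (squares), GFPKO minus TN (circles) and Treg minus TN (triangles). Filled symbols had an adjusted p under 0.05. Cish and Gfi1 lie right of 0 against TN in GFPKO and in Treg, and Ccr7 lies left of 0 in Treg minus TN and right of 0 in GFPKO minus Treg.

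Among receptors for entry into lymph nodes, Ccr7 had the same calls as Gpr183. Ccr7, the chemokine receptor that admits naive T cells, averaged 11.63 in GFPKO, 10.89 in Treg and 11.84 in TN. It fell in Treg against TN by 0.95 ± 0.12 (adjusted p = 7.25e-05 in limma), was higher in GFPKO than in Treg by 0.74 ± 0.12 (adjusted p = 0.00145) and was not called in GFPKO minus TN (-0.21, adjusted p = 0.526). Cxcr5, the receptor that leads cells to B cell follicles, rose by 1.52 in Treg and fell by 0.95 in GFPKO, each against TN, and was lower by 2.47 in GFPKO than in Treg. Itga4, an integrin chain used in homing to gut and inflamed tissue, was higher in GFPKO by 0.97 against TN (adjusted p = 0.0359) and by 1.11 against Treg. Its GFPKO arrays were spread widely, at 10.62, 9.67 and 9.33, with replicate 1 highest. Itgb1, a partner gene of Itga4, was lower by 1.01 in GFPKO than in Treg. Itgb7, another partner, was chosen for mention after its values were seen and was called in no comparison. Its means were 11.23 in GFPKO, 11.22 in Treg and 11.27 in TN. Of the 8 measured entry receptors 1 rose and 1 fell in Treg minus TN, 1 rose and 1 fell in GFPKO minus TN, and 2 rose and 2 fell in GFPKO minus Treg. The medians were 0.04, -0.06 and 0.02, and 9.97%, 5.66% and 9.43% of all genes were called in these comparisons.

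The genes around S1pr1 and S1pr4 hold 1 called gene, Grk6. None of the 9 other genes of sphingosine 1-phosphate receptors and lipid turnover passed the test in limma in any comparison, with medians of -0.08, -0.08 and -0.05 in Treg minus TN, GFPKO minus TN and GFPKO minus Treg. At an unadjusted p under 0.05 there was 1 higher gene in Treg minus TN and 0 in either direction in the comparisons with GFPKO. The other receptors S1pr3 and S1pr5 were below background in every group, at 3.40 and 2.79 in GFPKO, 3.46 and 2.84 in Treg, and 3.60 and 2.95 in TN. Of 12 genes of receptor trafficking and G protein signalling in exit 1 was called, the receptor kinase gene Grk6, lower by 0.51 ± 0.14 in Treg than in TN (adjusted p = 0.0251). This is 1 of 12 genes where 9.97% of all genes were called. The list medians were -0.05 in Treg minus TN, 0.06 in GFPKO minus TN and 0.24 in GFPKO minus Treg, beside 0.03, -0.04 and -0.08 over all genes. In GFPKO minus Treg 4 of the 12 were higher and 1 lower at an unadjusted p under 0.05. Klf2, a transcription factor known to drive S1pr1, Foxo1, which drives Il7r and Klf2 in naive T cells, and Cd69, which takes S1pr1 off the surface, were chosen for mention after their values were seen, as were S1pr3 and S1pr5. Klf2 averaged 11.85 in GFPKO, 11.45 in Treg and 11.69 in TN, and GFPKO minus Treg was 0.40 ± 0.12 (adjusted p = 0.0561). Foxo1 averaged 10.79 in GFPKO, 10.42 in Treg and 10.54 in TN, with GFPKO minus Treg at 0.37 ± 0.13 (adjusted p = 0.0881). Cd69 differed by at most 0.08 between group means.

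The genes that make or meet the ligands of the other receptors fall into 3 lists. Of 11 enzymes that decorate PSGL-1 for selectin binding 2 rose in Treg against TN, Gcnt1, a branching enzyme for O-glycans (0.83 ± 0.16), and Tpst1, a tyrosine sulfotransferase (0.44 ± 0.11). In GFPKO the sialyltransferase gene St3gal1 fell by 0.91 against TN and Gcnt1 by 0.57 against Treg, 1 call in each comparison. Gcnt1 averaged 3.66 in GFPKO and 3.41 in TN, both below background, and 4.23 in Treg, where replicate 1 read 3.67. The sizes of its differences from Treg are therefore uncertain. The medians of this list were 0.07 in Treg minus TN, -0.07 in GFPKO minus TN and -0.28 in GFPKO minus Treg. The share of all genes called was 9.97%, 5.66% and 9.43% in these comparisons.

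Of 13 partners of CD44 and hyaluronan genes 1 fell in Treg against TN, the membrane linker gene Ezr by 0.40 (adjusted p = 0.0492). Mmp14, a membrane protease that can cut CD44, was higher in GFPKO by 1.57 against TN and by 1.27 against Treg (adjusted p = 0.000143 and 0.000398). It was the 1 call of this list in GFPKO minus TN, and in GFPKO minus Treg Ezr rose by 0.43 and Mmp9 fell by 0.50. Mmp9 averaged 4.14 in GFPKO and 4.63 in Treg, near background, so the size of its difference is uncertain. The list medians were 0.06, 0.04 and -0.09 in Treg minus TN, GFPKO minus TN and GFPKO minus Treg, where 9.97%, 5.66% and 9.43% of all genes were called.

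Of the 4 oxysterol enzymes Hsd3b7, which degrades the Gpr183 ligand, read 3.50 in GFPKO, 4.66 in Treg and 3.76 in TN. Hsd3b7 rose by 0.90 ± 0.16 in Treg against TN and fell by 1.16 ± 0.16 in GFPKO against Treg. The GFPKO and TN means were below background, so the sizes of these differences are uncertain. Cyp27a1, a sterol hydroxylase, fell by 0.72 in GFPKO against TN (adjusted p = 0.0146). Its GFPKO arrays read 4.05 to 4.18, just above background, so the size of this difference is uncertain too. Ch25h and Cyp7b1, the rest of the list, had means below background in every group. The medians of the 4 were 0.03 in Treg minus TN, -0.15 in GFPKO minus TN and -0.13 in GFPKO minus Treg. In each comparison 1 of the 4 was called, where 9.97%, 5.66% and 9.43% of all genes were.

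For each receptor the genes with the most similar pattern were sought by Pearson correlation over the 11 arrays, among 68 genes as bright as the dimmest member and with an SD of at least 0.5. The arrays share the 3 groups, so these correlations can follow group means, the spread of arrays within groups, or both. They carry no p. Of the genes named below, Ampd2 and Malat1 were called in no comparison, and Malat1 had an SD of 1.05 in TN. Closest to Gpr183 were Emb, an adhesion molecule (r = 0.968), the chromatin organiser Satb1 (0.951) and the zinc finger factor Ikzf1 (0.945), whose log2 differences were -1.62, -1.56 and -1.10 in Treg minus TN and 0.96, 1.01 and 0.75 in GFPKO minus Treg. Closest to Il7r were the ketone body enzyme gene Oxct1 (0.967), the selenium transport gene Selenop (0.940) and the pyruvate dehydrogenase kinase gene Pdk1 (0.920). Oxct1 and Pdk1 fell against TN in both groups, with differences of -0.917 and -1.44 in GFPKO and -0.996 and -1.45 in Treg. Cd44 was closest to the co-stimulatory receptor gene Icos (0.928), the prostaglandin receptor gene Ptger4 (0.898) and P2ry10 (0.895), and Icos rose by 1.23 in Treg and by 0.63 in GFPKO against TN. S1pr1 was closest to the splicing factor gene Rbm39 (0.924), the cytoskeletal gene Add3 (0.874) and the nuclear RNA Malat1 (0.871). For S1pr4 and Selplg no gene of the 68 exceeded 0.592 and 0.779, those of Gramd1a and Ampd2. The SD of S1pr4 and Selplg over the 11 arrays was 0.28 and 0.16, below the 0.5 asked of the 68 genes. Genes as flat as these receptors were thus left out of the search, so their lower values cannot show that no gene resembles them.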

How the data were processed

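RNA of 11 samples was labelled with biotin and hybridised by the Affymetrix protocol, per the labels' protocols. The authors made the deposited log2 values with RMA, per the submitters' processing notes, and its version is not given in the sources used here. RMA corrects background, normalises by quantiles and summarises each probe set, which reduces differences in overall signal between arrays. The log2 scale was read from the values (1.54 to 14.65), and no detection calls or raw intensities were used.

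Of 45101 probe sets, 34945 with 1 gene symbol gave 18193 genes, each taken from its brightest probe set, with no filter on dim genes. Symbols were updated by Entrez ID for 34741 probe sets. Group means were fitted jointly over the 11 arrays in limma 3.58.1 (R 4.3.3), tested on simulated data. The same fit was run over all probe sets. Members and gene lists were chosen with earlier results of these data known, and the background level was chosen after values were seen. Named genes are all members, up to 3 called genes per pathway list and comparison with the largest change, and the 3 genes most like each member. Of 76 pathway genes 72 were measured. No arrays held identical values. The number of arrays limits the precision. Alternatives were the replicate block, other probe set choices, filters, scaling, weights, moderation, an actin covariate and leaving out each array.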

Additional observations from a re-analysis of the deposited data

Results flagged for a closer look

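Of 49 probe sets of named genes, 2 had 1 Treg array far from the other Treg arrays by Dixon's ratio, and chance alone flags about 1 in 20. Cxcr5, the follicle-homing receptor, read 8.70 on Treg replicate 1 with the next array at 8.51 and the lowest at 8.45 (ratio 0.7785). Grap, an adaptor gene whose pattern was among the 3 most like S1pr4, read 10.05 on Treg replicate 5 with the next at 9.72 and the lowest at 9.67 (ratio 0.8467). No probe set of the 6 receptors was among them.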

How the results depend on the processing

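The 18 differences of the 6 genes (3 comparisons each) were recomputed under 20 alternatives. No called difference lost its call or changed its direction under any of them, and 353 of 360 recomputed differences stayed on the same side of the threshold, while 7 passed it that had not. Of these, S1pr1 in Treg minus TN ranged from -0.84 (without TN replicate 1) to -0.32 when single arrays were left out. Cd44 in GFPKO minus TN was 0.44 with array weights (adjusted p = 0.0133 in limma), which raised the calls for the 6 genes in that comparison to 2. Cd44 in GFPKO minus Treg was -0.60 by the mean of its probe sets, -1.21 by its most variable probe set, -0.47 after a filter on dim genes (adjusted p = 0.0487, with 9587 genes tested), -0.45 with array weights and -0.66 with the actin covariate. Its adjusted p ranged from 0.000683 to 0.287 over all alternatives. Uncalled differences near 0 changed sign in some alternatives, those of Selplg and S1pr4 and that of Cd44 in GFPKO minus TN (-0.01) by its most variable probe set. The cause of these changes was not tested.

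Counts over all genes moved more. Without single arrays they ranged from 644 (without TN replicate 1) to 1868 (without GFPKO replicate 3) in GFPKO minus TN, against 1029, and from 1134 (without GFPKO replicate 1) to 3421 (without GFPKO replicate 3) in GFPKO minus Treg, against 1716. Array weights gave 3223 in Treg minus TN, against 1813, and 5051 and 6756 in the comparisons with GFPKO minus TN and GFPKO minus Treg. The actin covariate gave 570 and 811 in those comparisons, and a fit of GFPKO and TN alone gave 562. Arrays numbered 1 deviated together across groups (correlations of 0.16 to 0.51), while the other same-numbered pairs lay between -0.22 and 0.07. Pairs with different numbers reached as far, from -0.54 (Treg 5 with GFPKO 1) to 0.51 (Treg 5 with GFPKO 3). Of the 9 same-numbered pairs 3 exceeded 0.1, and the numbers were not taken to pair the arrays. With the replicate block, 1049 genes were called in GFPKO minus Treg, and no call for the 6 genes changed (S1pr1 1.15, adjusted p = 0.0281, and Gpr183 0.60, adjusted p = 0.0335).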

Other observations

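Other cell type markers gave these values. Of all genes 6.54% were called higher and 3.42% lower in Treg minus TN, and 2.55% and 6.88% in GFPKO minus Treg. The 9 measured B cell markers summed to 139 to 185 in linear signal in GFPKO, 316 to 386 in Treg and 158 to 176 in TN, with 6 of 9 at or below background in each group. Of these Cd79b averaged 6.01 in GFPKO, 7.63 in Treg and 4.36 in TN, and it was the 1 B cell marker called higher in Treg than in TN, while Ms4a1 (2.76 in GFPKO, 3.11 in Treg and 3.98 in TN) was the 1 called lower. The 2 CD8 markers summed to 141 to 191 in GFPKO, 164 to 202 in Treg and 198 to 236 in TN. Erythroid and platelet markers, of which 4 of 5 measured were at or below background in each group, summed to 75 to 89 in GFPKO, 87 to 103 in Treg and 88 to 92 in TN. Stromal and endothelial markers, with 5 of 6 at or below background, summed to 183 to 211 in GFPKO, 165 to 198 in Treg and 219 to 230 in TN. The 10 Treg markers summed to 7307 to 8415 in GFPKO, 12855 to 14094 in Treg and 1794 to 1943 in TN. Of the 10, 6 were lower in GFPKO than in Treg and 1, Foxp3, was higher.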
